A study of Mus musculus with 28 samples.

Results

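The 32587 chromatin loops described here were called in proliferating C2C12 cells and not after 60 h of differentiation. They were chosen as the rows of the deposited loop table whose condition is growth medium alone, and they made up 51.13% of its 63732 loops. Another 24031 loops (37.71%) were called at 60 h alone and 7114 (11.16%) in both conditions. C2C12 is an immortalised mouse myoblast line, wild type per the labels, used as a model of muscle differentiation in culture. Growth medium (GM) held 20% fetal bovine serum, and differentiation medium held 3% horse serum. Hi-C, a genome-wide assay of chromatin contacts, was done on 3 libraries in GM and 3 at 60 h, and ATAC-seq, which marks open chromatin, on 2 in each. For RNA-seq there were 18 libraries from 6 groups of 3, taken in GM and after 12, 24, 48, 60 and 96 h in differentiation medium. Separate cultures are not described in the labels, which call the replicates biological. The p-values therefore cover only the variation among these libraries, and part of it may be technical.

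A loop is a pair of distant segments, its anchors, that contact each other more often than their surroundings. In mammalian cells many loops are held by the ring-shaped cohesin complex, which extrudes chromatin until it meets the DNA-binding protein CTCF, and others join promoters and enhancers. When myoblasts leave the cell cycle, genes of DNA replication and mitosis are switched off, and myogenic factors switch on the genes of the contractile apparatus. The loop table gives no contact count, fold or p-value, so a loop called in 1 condition is not shown to differ in strength between them. Hi-C depth in each condition was not analysed here, and its part in the number of loops called was not tested.

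Total RNA-seq counts ran from 24154680 to 36405121 per library. The myoblast label fitted its markers: Des, the muscle intermediate filament, was at 536 to 564 CPM (read counts relative to effective library size) in the GM libraries, Myod1 at 42.6 to 49.8 CPM and Myf5 at 70.3 to 75.9 CPM. Ptprc of leukocytes and Pecam1 of endothelium did not exceed 0.0916 CPM in GM or at 60 h, and Epcam of epithelium was at 0 in those 6 libraries. In bulk RNA, fewer cells of a type and less RNA per cell cannot be told apart.

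Promoter sequences are shown first for 7 genes that start in anchors of GM-only loops. They come from RefSeq (build GRCm38.p6), run 5′ to 3′ on the gene's strand and cover the part of the 250 bases before an annotated start that lies outside every annotated gene. Capitals mark matches, on either strand, to 5 motifs that do not overlap here: the E-box CAGCTG, AP-1 TGANTCA, the CCAAT box CCAAT, the CTCF core and 1 strict form of the MEF2 site (CTA, any 4 bases, TAG). Myog encodes the myogenic factor myogenin, and Mybph and Mybpc1 encode myosin-binding proteins of the sarcomere. Id3 encodes an inhibitor of myogenic factors, Plk1 a mitotic kinase, and Hist1h2ao and Hist1h2ah encode histone H2A.
Myog (chr1:134289762-134290003, plus strand): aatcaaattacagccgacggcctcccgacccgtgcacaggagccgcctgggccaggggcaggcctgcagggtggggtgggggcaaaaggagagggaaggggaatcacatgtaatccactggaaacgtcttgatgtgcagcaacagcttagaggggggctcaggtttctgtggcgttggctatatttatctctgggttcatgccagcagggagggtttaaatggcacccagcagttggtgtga
Mybph (chr1:134193198-134193417, plus strand): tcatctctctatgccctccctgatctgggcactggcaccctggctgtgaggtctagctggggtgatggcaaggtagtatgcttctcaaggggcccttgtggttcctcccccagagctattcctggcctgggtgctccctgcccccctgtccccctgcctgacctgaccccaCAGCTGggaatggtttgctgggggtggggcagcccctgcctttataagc
Mybpc1 (chr10:88605230-88605402, minus strand): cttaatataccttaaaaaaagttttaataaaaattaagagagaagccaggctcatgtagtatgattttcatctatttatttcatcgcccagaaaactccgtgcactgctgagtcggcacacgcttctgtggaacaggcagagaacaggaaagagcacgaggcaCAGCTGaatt
Id3 (chr4:136143572-136143821, plus strand): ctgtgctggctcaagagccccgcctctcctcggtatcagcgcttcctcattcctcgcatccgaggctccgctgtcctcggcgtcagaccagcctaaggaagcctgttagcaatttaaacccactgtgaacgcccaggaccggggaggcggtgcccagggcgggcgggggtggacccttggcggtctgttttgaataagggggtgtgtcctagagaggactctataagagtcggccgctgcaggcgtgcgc
Plk1 (chr7:122159185-122159434, plus strand): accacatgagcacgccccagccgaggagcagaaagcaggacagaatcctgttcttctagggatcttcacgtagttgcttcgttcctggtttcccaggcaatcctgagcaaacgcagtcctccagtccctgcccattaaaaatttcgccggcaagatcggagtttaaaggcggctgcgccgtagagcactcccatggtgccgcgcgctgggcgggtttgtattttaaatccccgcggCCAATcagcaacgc
Hist1h2ao (chr13:21810200-21810366, plus strand): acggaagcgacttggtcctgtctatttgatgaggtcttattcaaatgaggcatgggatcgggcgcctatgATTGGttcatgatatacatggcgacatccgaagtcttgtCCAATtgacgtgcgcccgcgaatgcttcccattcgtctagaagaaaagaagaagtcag
Hist1h2ah (chr13:22035644-22035820, minus strand): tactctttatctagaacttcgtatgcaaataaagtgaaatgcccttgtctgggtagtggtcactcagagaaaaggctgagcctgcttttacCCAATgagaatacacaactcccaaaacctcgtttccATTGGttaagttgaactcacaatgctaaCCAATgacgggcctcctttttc
The shown stretches of Mybph and Mybpc1 each held 1 CAGCTG, and those of Myog and Id3 held no match to these patterns. Other forms of the E-box and other A/T-rich forms of the MEF2 site were not searched. The lack of a match therefore says nothing about other E-boxes or MEF2 sites at Myog or Id3. CCAAT stood at 2 places in Hist1h2ao, at 3 in Hist1h2ah and at 1 in Plk1. These are matches of letters and show no binding. Over the 250 bases before the start, CAGCTG stood in 12.04% of 7831 promoters of tested genes in GM-only anchors, in 12.49% of 13357 promoters of all tested genes and in 13.0% of all 32851 promoters. CCAAT stood in 35.39%, 35.62% and 33.85%, AP-1 in 4.712%, 4.709% and 6.749%, MEF2 in 2.758%, 2.83% and 3.202%, and the CTCF core in 1.277%, 1.16% and 0.8158% of the same sets.

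GM-only loops were long. Their anchors, each 25 kb wide, lay 75 to 1975 kb apart, with a median of 600 kb (quartiles 375 and 925 kb). Loops called at 60 h alone had a median of 550 kb (350 and 850 kb), and loops of both conditions 325 kb (150 and 575 kb). The GM-only share of all loops rose with distance, from 37.01% of those up to 250 kb, through 49.29%, 54.5%, 56.79% and 58.94%, to 60.83% of those of 1500 to 2000 kb. Over the same classes the share of loops called in both conditions fell from 27.43% to 3.855%. By chromosome, the GM-only share ran from 48.54% on X to 53.0% on chromosome 4. For each loop called at 60 h alone there were 1.141 GM-only loops on X and 1.465 on chromosome 4.

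**Figure D1:**
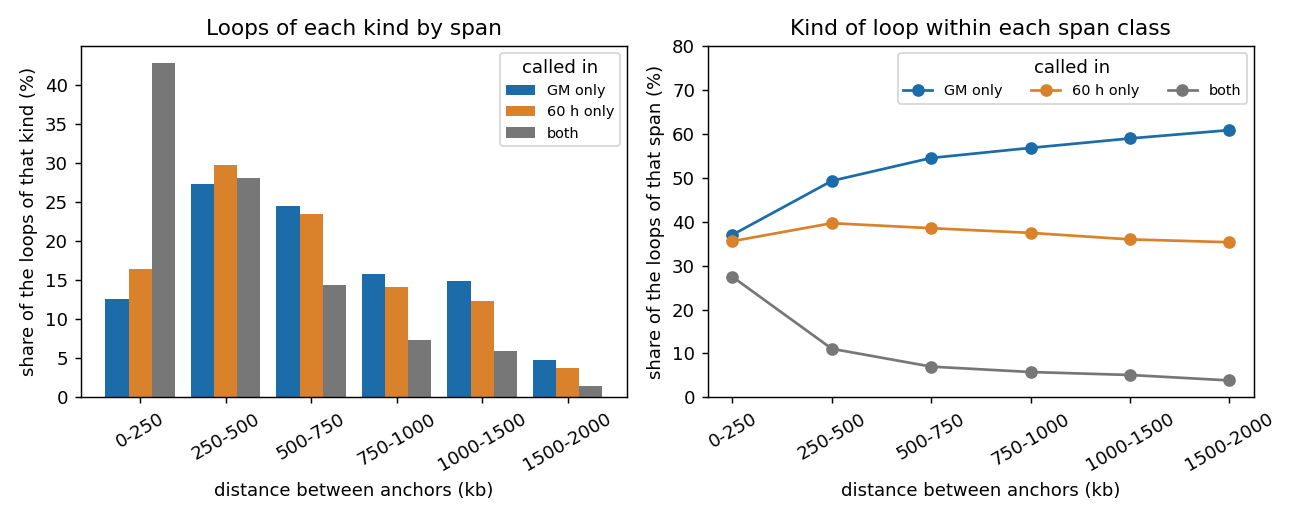
Left, share of the loops of each kind by distance between anchors (kb). Right, share of each kind among the loops of a distance class. The GM-only share rises from 37.01% in the shortest class to 60.83% in the longest.

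The loops ended in 40786 distinct anchors covering 1020 Mb. An anchor held 1.598 GM-only loops on average: 61.86% of anchors held 1, and 747 (1.832%) held 5 or more. Anchors of 60 h-only loops took 31833 of the 102188 windows of 25 kb between the first and last anchor of each chromosome. The sharing that such density alone would give was not worked out, so the shares here are descriptive. Of the GM-only anchors, 21669 (53.13%) also anchored a loop called at 60 h, and 19117 (46.87%) anchored GM-only loops alone. Of the GM-only loops, 37.17% shared both anchors with loops called at 60 h, though with other partners, 45.63% shared 1 and 17.21% shared neither. For loops called at 60 h alone, 52.27% shared both anchors with loops called in GM and 8.397% shared neither.

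Within 25 kb at both ends, 8953 GM-only loops (27.47%) had a loop called at 60 h. That share was 44.87% within 50 kb and 66.45% within 100 kb. The share that the density of 60 h loops alone would give at these distances was not tested. In the other direction, 36.54%, 57.19% and 78.98% of the loops called at 60 h alone had a loop called in GM at these distances. GM-only loops of up to 250 kb had a 60 h neighbour within 25 kb in 35.7% of cases, and those of 1500 to 2000 kb in 14.6%. The 23634 loops without such a neighbour had a median span of 650 kb, against 525 kb for those with one.

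**Figure D2:**
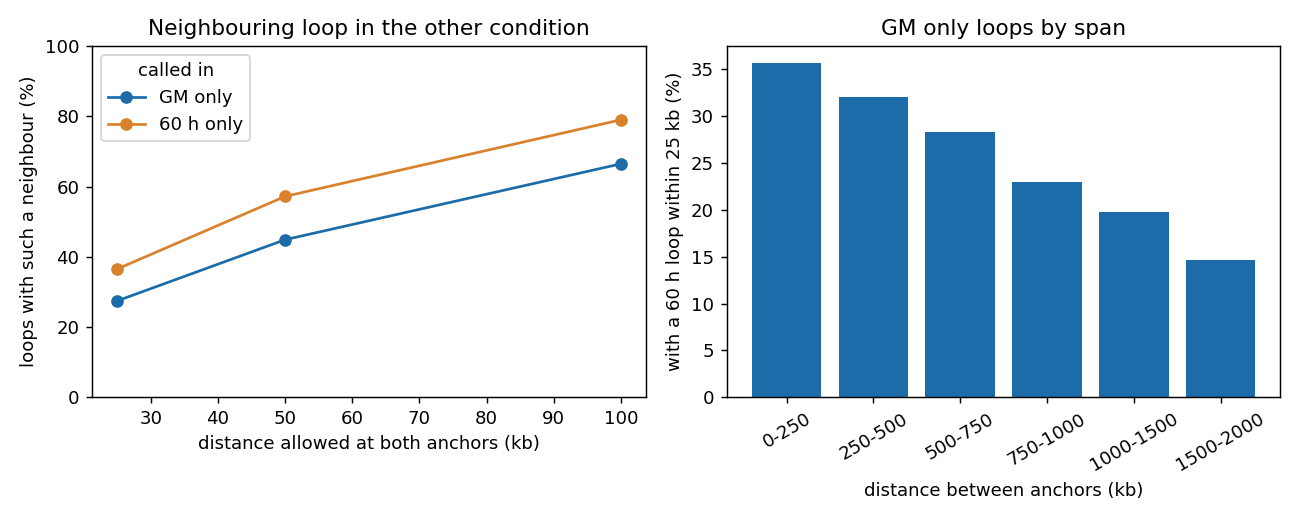
Left, share of loops called in 1 condition with a loop of the other condition near both anchors, by the distance allowed (kb). Right, share of GM-only loops with a 60 h loop within 25 kb, by distance between anchors, falling from 35.7% to 14.6%.

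Of the 15 anchors with 10 or more GM-only loops, 3 held the start of a placed gene (Ccer1, A230028O05Rik and Dpy19l1), and of all GM-only anchors 26.52% held such a start. Some of the others overlapped the span of a protein-coding gene, namely those at Cntln, Zfp536 and Ptpre. The anchor at chr13:25925001-25950000 held 15 GM-only loops, 5 loops of 60 h alone and none of both, and all 15 partners lay on its right, 275 to 1575 kb away. The nearest named protein-coding gene, leaving out predicted and clone-named genes, was Nrsn1 at 655 kb. The anchor at chr11:113150001-113175000 held 13, all with partners on its left, overlapped a boundary between topologically associating domains (TADs) in both conditions and by the same measure lay 69.85 kb from Slc39a11 and 362 kb from Sox9, a transcription factor of cartilage. Among the 747 anchors with 5 or more GM-only loops, 55.56% had all partners on 1 side. That share was 71.73% of 566 such anchors for loops of 60 h alone. TAD boundaries of GM touched 12.32% of the 747 anchors and 12.01% of the 566.

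Open chromatin was common at GM-only anchors, and peaks found in GM alone touched nearly the same share of these anchors as of the anchors of 60 h-only loops. A peak of the GM list touched 79.8% of GM-only anchors, 82.28% of the anchors of 60 h-only loops and 94.53% of those of loops in both, against 59.79% of all 25 kb windows between the first and last anchor of each chromosome. Peaks with no overlap in the 60 h list touched 34.85%, 35.04% and 40.37% of these anchors and 26.56% of all windows. Peaks found at 60 h alone touched 39.75%, 40.68%, 43.28% and 29.5%. The share with a GM peak rose with the number of GM-only loops, from 75.31% of anchors with 1 to 95.72% of those with 5 or more. The share with a peak of the 60 h list rose alike, from 75.91% to 95.05%, while that with a peak of GM alone was 33.57% and 36.55%. Both anchors of a loop carried a GM peak in 73.17% of GM-only loops, 75.84% of 60 h-only loops and 92.02% of loops in both. The authors gave 1 peak list and 1 boundary list per condition, so these shares carry no replicate error and no test.

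**Figure D3:**
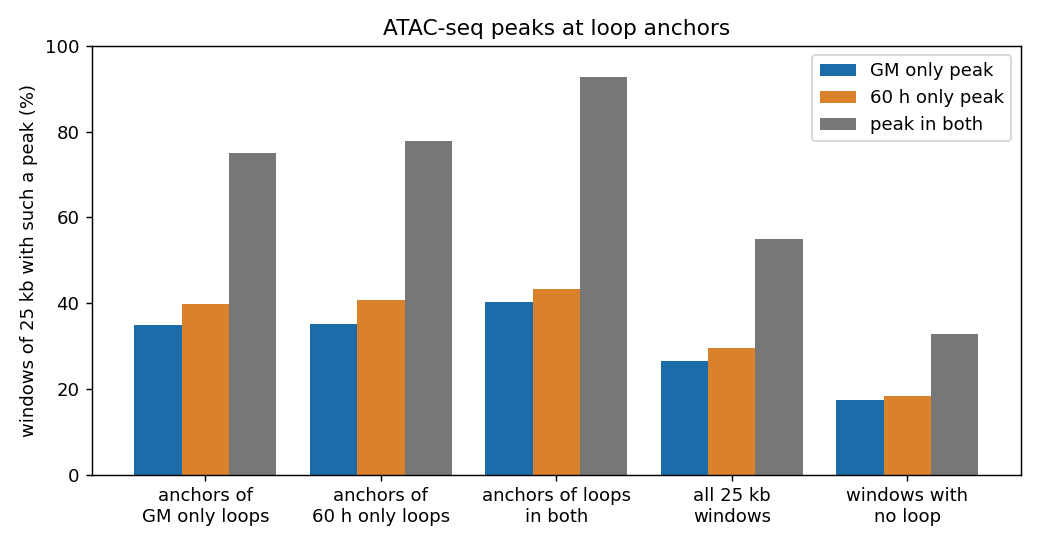
Share of 25 kb windows touched by an ATAC-seq peak of GM alone, of 60 h alone or of both lists, for loop anchors by kind, for all windows and for windows with no loop. GM-only and 60 h-only anchors have nearly the same height for peaks of GM alone, 34.85% and 35.04%.

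TAD boundaries of GM touched 6.223% of GM-only anchors, 6.283% of 60 h-only anchors and 5.769% of all windows. Of the GM-only loops, 54.96% crossed no GM boundary, against 61.62% of the 60 h-only loops and 78.97% of loops in both. Loop length moved with this share: among GM-only loops it fell from 87.5% up to 250 kb to 5.57% at 1500 to 2000 kb. In the shortest class it was 87.7% for 60 h-only loops and 87.83% for loops in both. In longer classes the kinds differed: at 500 to 750 kb it was 56.65% for GM-only loops, 61.32% for 60 h-only loops and 78.07% for loops in both. At 750 to 1000 kb it was 37.9%, 43.59% and 59.85%, and at 1000 to 1500 kb 19.22%, 21.54% and 36.82%. Only 2.802% of GM-only loops crossed a boundary of 60 h while crossing none of GM, and 3.09% did the reverse.

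Genes at the anchors of GM-only loops were about as often higher as lower at 60 h. A gene was placed by its RefSeq start, or by its whole span where that lay in 1 anchor-wide window. Of 14376 genes placed in GM-only anchors, 7203 passed the filter on low counts. By edgeR's quasi-likelihood test of 60 h against GM, with Benjamini-Hochberg adjustment over all 15303 genes tested, 2487 of them (34.53%) were higher and 2538 (35.24%) lower. Over all genes tested the shares were 33.1% higher and 32.2% lower. The median log2 fold change was -0.004 at the anchors and -0.008 over all 12201 placed genes. Of 2539 genes with GM-only loops and no other, 32.73% were higher and 35.37% lower, and of 1458 genes with 60 h-only loops and no other, 33.88% and 33.95%. The median did not move steadily with the number of GM-only loops at a start: it was 0.006 with 1, -0.015 with 2, -0.031 with 3 or 4 and 0.009 with 5 or more. At 12 h, 18.7% of the 7203 genes were higher and 19.45% lower, beside 17.8% and 17.2% of all genes tested. At 24 h the shares were 29.75% and 34.5%, beside 30.2% and 30.6%, and at 48 h 32.29% and 36.29%, beside 32.5% and 32.8%. At 96 h they were 36.18% and 36.93%, beside 34.8% and 34.1%. Placed genes as a whole, with or without loops, were nearer to the anchors' shares: 29.17% higher and 33.38% lower at 24 h, and 31.59% and 35.56% at 48 h. Genes with 60 h-only loops and no GM-only loop stood at 29.43% and 33.54% at 24 h, and at 31.87% and 36.97% at 48 h.

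Peaks at the gene's own anchor, a comparison chosen after seeing the data, went with different shares, with or without a loop. Where the anchor held a GM-only peak and no 60 h-only peak, 26.93% of 1779 genes were higher at 60 h and 41.99% lower, with a median log2 fold change of -0.114. Where it held a 60 h-only peak and no GM-only peak, 42.0% of 1557 genes were higher and 29.16% lower, with a median of 0.085. In windows with no loop, the same peak classes gave 27.78% and 38.73% of 648 genes, and 38.35% and 26.16% of 558 genes. Peaks at the partner anchors went with smaller differences. Where partners held a GM-only peak and no 60 h-only peak, 33.26% of 1461 genes were higher and 37.23% lower. Where they held a 60 h-only peak and no GM-only peak, 37.66% of 1564 genes were higher and 34.34% lower. Peaks found in both lists were not considered in these classes.

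**Figure D4:**
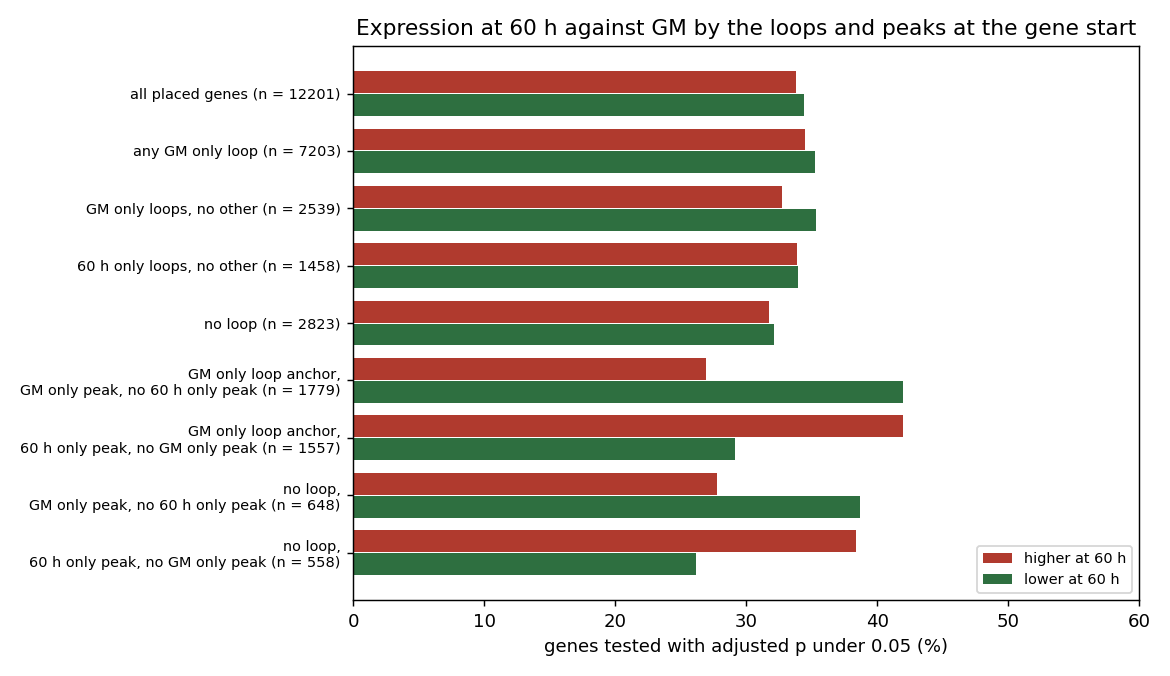
Share of tested genes higher or lower at 60 h than in GM (adjusted p under 0.05), by the loops at the gene start and by the ATAC-seq peaks there, with the number of genes. Loop classes differ little from all placed genes, while peak classes differ with and without a loop.

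GM-only loops joined the starts of 3053 pairs of tested genes. In 1517 pairs both genes passed the test: 331 pairs (21.82%) rose together, 528 (34.81%) fell together and 658 (43.38%) went opposite ways. The shares were nearly the same for 1168 such pairs joined by 60 h-only loops, at 21.4%, 35.27% and 43.32%. For 370 pairs joined by loops of both conditions they were 15.14%, 43.24% and 41.62%. Every gene at an anchor was paired with every gene at its partner anchor, so the pairs are not independent. Clustered genes, such as the Hist1 genes described below, therefore weigh more. Differences between the kinds of loop were not tested. One GM-only loop of 150 kb joined chr7:142425001-142450000, which holds Tnni2 and Syt8, to chr7:142575001-142600000, which holds H19. H19 is an imprinted non-coding RNA abundant in fetal muscle, and Tnni2 is the fast-muscle troponin I. H19 stood at 546, 542 and 574 CPM in the GM libraries and at 4901, 4730 and 5022 CPM at 60 h. Tnni2 stood at 2.15, 2.23 and 1.56 CPM in GM and at 95.6, 76.4 and 93.6 CPM at 60 h. Both genes were higher in every 60 h library than in any GM library, by 3.14 ± 0.07 (SE) for H19 and 5.48 ± 0.138 for Tnni2 on the log2 scale (edgeR adjusted p = 1.94e-19 and 1.55e-18). The loop was thus called in the condition where both were lower, though H19 was not low there. Tnni2 had 2 GM-only loops and also 1 loop of both conditions. A 750 kb GM-only loop joined Igf1, a growth factor of muscle, to Mybpc1, which had 2 GM-only loops and 1 of 60 h alone. Igf1 was at 0.667, 0.886 and 1.16 CPM in GM and at 14.0, 13.6 and 12.3 CPM at 60 h, and Mybpc1 did not exceed 0.0665 CPM in GM and reached 1.68 to 2.16 CPM at 60 h.

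Pairs that fell together included the histone genes of chromosome 13, which supply histones during DNA replication. Loops with Hist1 genes at both anchors numbered 6 for GM alone, 4 for 60 h alone and 3 for both. Of 52 placed and tested Hist1 genes all were lower at 60 h, 42 of them in GM-only anchors, and the median log2 fold change was -2.178 in these and -2.201 in the other 10. Of all 12201 placed and tested genes, 7203 lay in GM-only anchors and 34.43% were lower at 60 h. Hist1 genes lie several to a window, so their places in anchors are not independent. Anchors of 60 h-only loops held 37 of the 52, with a median of -2.134. Many genes of the same histone type are near-identical copies, and the counting could split reads between them. Hist1h1a, a linker histone gene with 2 GM-only loops and no other, fell from 179, 180 and 186 CPM in GM to 32.3, 32.3 and 31.9 CPM at 60 h, a log2 fold change of -2.50 ± 0.0462 (edgeR adjusted p = 1.23e-20). A 225 kb GM-only loop joined Hist1h2ao to Hist1h2ah, whose promoters hold the CCAAT matches shown above. Both anchors hold other Hist1 genes as well. A 200 kb loop of 60 h alone ended in the same Hist1h2ah anchor and in the window next to that of Hist1h2ao. Hist1h2ao was near the floor, at 1.78, 3.27 and 1.10 CPM in GM and at 0.374, 0.153 and 0.296 CPM at 60 h. Hist1h2ah was at 225, 169 and 194 CPM in GM and at 28.3, 35.3 and 34.2 CPM at 60 h. On chromosome 17, 3 GM-only loops joined Cdsn, a gene of cell adhesion in skin, to Lsm2, Zbtb12 and 1110038B12Rik. Cdsn fell from 13.9, 13.5 and 9.07 CPM to 0.374, 0.497 and 0.493 CPM.

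Genes of the cell cycle at GM-only anchors were mostly lower at 60 h. In the list of DNA replication, 16 of 17 tested genes fell and 1 rose, with a median log2 fold change of -1.042, and 8 of the 9 placed outside GM-only anchors fell too. Mcm10, a replication factor with 2 GM-only loops and no other, was at 43.7, 43.7 and 38.7 CPM in GM and at 14.8, 15.1 and 13.6 CPM at 60 h. E2f2, a cell cycle transcription factor with 3 GM-only loops, 2 of 60 h alone and 1 of both, rose by 0.91. In the list of mitosis, 10 of 10 fell, as did all 11 placed elsewhere. Plk1, with 1 GM-only loop and 1 of both conditions, was at 43.9, 43.0 and 44.9 CPM in GM and at 9.68, 9.63 and 8.87 CPM at 60 h. In the list of CTCF, cohesin and condensin, 10 of 12 fell, 1 rose and 1 did not pass, and 4 of the 5 tested elsewhere fell. The condensin gene Ncapd2 changed by -1.58 and the cohesin regulator Cdca5 by -1.18, against -0.31 for Ctcf and -0.37 for the cohesin subunit Smc1a.

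Muscle genes at GM-only anchors were mostly higher. Of 19 tested sarcomere genes 18 rose and none fell (median 5.413), and 17 of 17 placed elsewhere rose. Of 7 genes of fusion and calcium handling 7 rose (median 3.883), as did 9 of 9 elsewhere. Of 6 myogenic factors 5 rose and none fell, and of the 4 tested elsewhere 1 rose and 1 fell. Myog (chr1:134290004-134292548) had 1 loop, GM-only, of 1100 kb to an anchor with no tested gene start. It was at 13.4, 13.1 and 13.5 CPM in GM and at 401, 355 and 410 CPM at 60 h, a log2 fold change of 4.86 ± 0.0733 (edgeR adjusted p = 8.18e-22). Gm7325, listed today as Mymx and encoding a membrane protein needed for myoblast fusion, had 3 loops, all GM-only, of 925, 1025 and 1200 kb. It was at 0.334, 0.428 and 0.499 CPM in GM and at 34.3, 29.95 and 38.1 CPM at 60 h. Atp2a1, the calcium pump of fast muscle, also had 3 GM-only loops and no other, and rose from 3.30, 2.66 and 3.56 CPM to 48.8, 42.4 and 48.6 CPM. For these 3 genes no value in GM reached the lowest at 60 h.

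Regulators of growth and of differentiation went both ways. In the list of Id and Notch genes, 6 of 10 tested genes fell and 3 rose, and of the 3 tested elsewhere 2 rose and none fell. Id1 and Id3 encode Id proteins, which bind the partners of myogenic factors and block them. Id3 had 4 GM-only loops of 850 to 1350 kb and no other, and was at 156, 158 and 166 CPM in GM and at 66.7, 81.3 and 70.0 CPM at 60 h (log2 fold change -1.14 ± 0.0769, edgeR adjusted p = 2.49e-11). Id1, with 1 GM-only loop of 1200 kb, was at 79.0, 66.0 and 73.5 CPM in GM and at 18.4, 22.0 and 16.8 CPM at 60 h. The Notch ligand Dll1 rose by 4.24 and the ligand Jag2 changed by -1.40. Dll1 had 2 GM-only loops, 1 of 60 h alone and 1 of both, and Jag2 had 2 GM-only loops and no other. In the list of growth response and AP-1 genes, 8 of 13 fell and 3 rose, and of the 6 tested elsewhere 1 fell and 1 rose. Hmga2, a chromatin protein of growing cells, had 3 GM-only loops and 1 of 60 h alone, and was at 87.5, 88.5 and 86.8 CPM in GM and at 25.8, 28.7 and 23.1 CPM at 60 h. Myc, a growth regulator, held 5 loops of GM alone, 5 of 60 h alone and 7 of both, and changed by -1.91. Of 9 genes of the YAP and TEAD growth-control pathway, its factors and targets together, 6 rose and 2 fell. Of the 2 tested elsewhere, 1 rose. Of 10 genes of extracellular matrix and adhesion 8 rose, with Postn, a matrix protein, at 3.41, and 1 fell, the integrin gene Itgb7, at -4.14. Of the 6 tested members placed elsewhere, 3 rose and 3 fell. Postn had 1 GM-only loop beside 2 of 60 h alone and 2 of both, and Itgb7 had 2 beside 1 of 60 h alone.

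**Figure D5:**
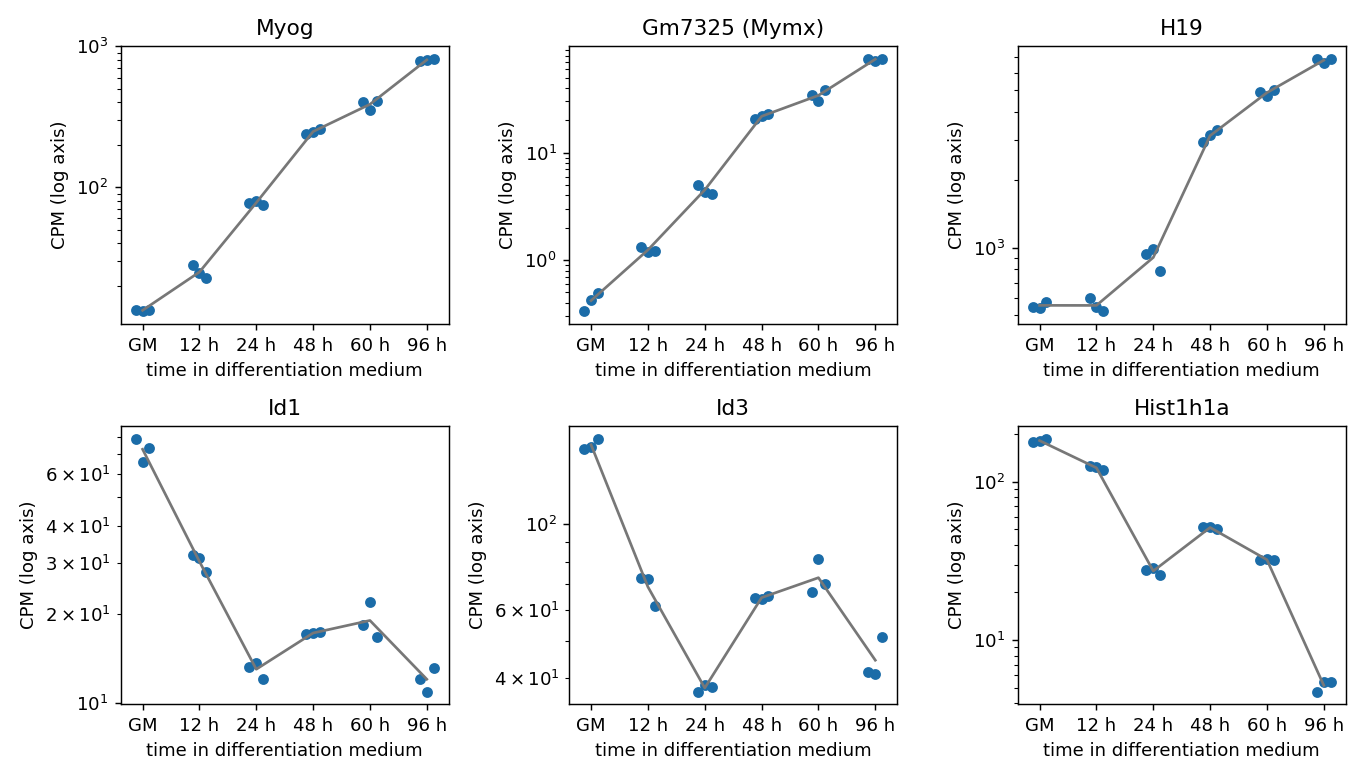
CPM in each library (points, log axis) and group mean (line) for 6 genes with GM-only loops and no other at their start, from GM to 96 h. Myog, Gm7325 and H19 are higher and Id1, Id3 and Hist1h1a lower in all 60 h libraries than in all GM libraries.

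Of the 10 genes with the most GM-only loops, Ccer1, Gm13373, Gm16141 and Gm5507 did not pass the filter on low counts. Lims1, an adaptor of cell adhesion, had 10 GM-only loops, 1 of 60 h alone and none of both, and was at 262, 273 and 289 CPM in GM and at 350, 344 and 354 CPM at 60 h (log2 fold change 0.35 ± 0.0482). Bdnf, a neurotrophin, had 11 beside 9 and 5, with a change of -0.37, and Tsc22d1 had 11 beside 7 and 3, with -0.07, which did not pass the test (edgeR adjusted p = 0.114). Dpy19l1 rose by 0.25. A230028O05Rik was at -1.13 ± 0.694 and Eaf2 at 0.26 ± 0.271, and neither passed (edgeR adjusted p = 0.161 and 0.411). Another 5 genes had 6 GM-only loops and no other. B4gat1, a glycosyltransferase, rose by 0.80. The centrosomal gene Cep290 changed by -0.54 and the endosomal gene Eea1 by -0.69. Angel2 was at 0.13 (edgeR adjusted p = 0.03), a call lost in several alternative fits, and Brms1 was at 0.03 (edgeR adjusted p = 0.838).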

How the data were processed

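The members and gene lists were chosen with earlier results of these data known. Per the deposited table's header and values, the authors gave unscaled read counts per gene, and their processing notes name STAR, RSEM and build mm10. The deposited ATAC-seq lists (Bowtie2 2.2.6 and MACS2 2.2.7 in the notes) hold a ratio over local background and a −log10 q per peak. Deposited TAD boundaries, on 40 kb bins, carry a strength score of unstated scale. Which caller made the loops, and what a 50-read filter in the table's title means, was not stated in the sources used here. All 18 libraries were fitted in R 4.3.3 with edgeR 4.0.16 (filterByExpr, TMM, quasi-likelihood F test, adjusted p under 0.05). CPM use effective library sizes. Overlaps needed 1 base. Loops, peaks and boundaries have no replicate values and were described without a test. Gene starts came from RefSeq GRCm38.p6, the assembly of mm10: 10518 tested genes were placed by a start and 1683 by a span within 1 window, 1932 had wider spans and 1170 no match. Named genes were list members at GM-only anchors and genes without 60 h-only loops with the largest changes, genes with the most GM-only loops, and joined pairs. Ctcf, Smc1a, Nrsn1, Slc39a11, Sox9, Cntln, Zfp536 and Ptpre were named after their values were seen. The scripts were tested on simulated data. Alternatives were other scalings, DESeq2 1.42.0, filters, placements and left-out libraries.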

Additional observations from a re-analysis of the deposited data

How the results depend on the processing

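At the GM-only anchors the counts of higher and lower genes at 60 h stayed within 1.5 times under other scalings, DESeq2, other filters and other placements, except that overlap by the gene body gave 3816 higher genes. The median log2 fold change stayed near 0: -0.018 with DESeq2 and with RLE scaling, -0.022 with a filter of 1 CPM in 3 libraries, and 0.006 by gene body. Leaving out 1 library gave -0.046 to -0.003, with -0.027 without the third 24 h library, an alternative chosen after seeing the data. Same-numbered libraries did not deviate together, and the replicate block gave 2477 higher and 2521 lower genes at the anchors and 5021 and 4890 over all genes. The share of GM-only loops with a 60 h neighbour depends on the distance by construction: 44.87% at 50 kb, 66.45% at 100 kb and 82.79% for at least 1 shared anchor. GM-only peaks touched 27.32% of GM-only anchors at a −log10 q of at least 5 and 34.3% with the whole peak inside, and 60 h-only peaks 30.05% and 38.97%. Among named genes, the calls of Angel2, Jag1 and Mau2 were lost and that of Tsc22d1 was gained in some fits, and no named gene changed direction after a call. The motif search around peak centres was not run, since no genome sequence was used here; promoter motifs, and CCAAT, were chosen after seeing the data.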
